A study of Drosophila melanogaster with 6 samples.

Results

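The genes described here each had an exon or intron that stood out in the pull-down with Asterix: CG4955, TTLL3B, rk, CG32850, CG8303, Fs(2)Ket, CG11360, borr, CG15221 and eys. They are 10 of the 13372 genes with exon, intron or mRNA reads, and they were chosen by their reads in crosslinked immunoprecipitate (IP) against crosslinked input, for 1 segment much more abundant in the IP. Because that contrast selected them, its values are given as a description with no test. The non-crosslinked pair of libraries was not used by this choice. Together the 10 genes had 112 features with reads, of 108847 features of these classes: 55 exons, 42 introns and 15 mRNA features. Counting isoform copies with equal values once, they had 90 distinct exon and intron segments.

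The libraries were made by eCLIP, which sequences RNA fragments that copurify with a protein, from OSS cells, a line of Drosophila ovarian somatic sheath cells. All groups came from cells whose Asterix (Gtsf1) was expressed from its endogenous promoter with a C-terminal cassette labelled GFP-FRT-Precission-V5-3xFLAG-P2A, so no untagged control enters any comparison. The 4 groups were crosslinked IP (2 libraries) and crosslinked input (2), from cells irradiated at 254 nm, and non-crosslinked IP (1) and non-crosslinked input (1), from cells that were not irradiated. IP was recovered with anti-FLAG beads after RNase I treatment, and input was kept back from the lysate. Nothing in the labels says that replicates came from separate cultures, so the spread between them may be technical.

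Asterix is a small zinc finger protein of the piRNA pathway, in which Piwi, loaded with small RNAs, silences transposons in the nucleus. Somatic cells of the ovary run this pathway with Piwi and without its germline partners Aubergine and AGO3. A CLIP signal on an exon or intron shows that fragments of that RNA were recovered with the protein. It does not by itself separate direct contact from carry-over.

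The crosslinked inputs held 15992638 and 11464862 reads in total, the crosslinked IPs 9948299 and 8259354, the non-crosslinked input 4194751 and its IP 2619716. Values are annotated reads scaled to the library total (RPM), in which 3 reads, taken as the floor, were worth 0.191 RPM in the deepest library and 1.31 RPM in the shallowest. All 6 markers of ovarian somatic cells, among them tj and piwi, lay above that floor in both crosslinked inputs, and their summed exon level ran from 119 to 546 RPM over the libraries. Of 6 germline markers 1, AGO3, lay above the floor in both inputs, at 0.447 and 0.624 RPM. The 6 had a summed level of 0.829 to 2.66 RPM. Of 3 photoreceptor markers none lay above the floor in both inputs. Of 3 neuron markers 1 did, of 3 hemocyte markers 2, of 3 muscle markers 3 and of 3 fat body markers 1, with summed levels of at most 11.1 RPM.

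The segment with the highest log2 ratio of crosslinked IP over crosslinked input among the tested segments of a gene is called its lead segment. The lead was an exon in 5 genes (CG4955, TTLL3B, rk, CG32850, CG15221) and an intron in the other 5 (CG8303, Fs(2)Ket, CG11360, borr, eys). Their edgeR log2 ratios ranked from 1 to 67 among 14994 tested exons and introns, so segments of other genes lie between them. Of all 17778 tested features, 22.2% were higher and 19.7% lower in crosslinked IP by edgeR's quasi-likelihood test at an adjusted p under 0.05. Among exons 5.99% were higher, and among introns 49.4%. In both IPs every lead lay above both inputs, which held for 35.9% of all tested features. Nothing is read from these shares, because the contrast chose the genes.

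**Figure D1:**
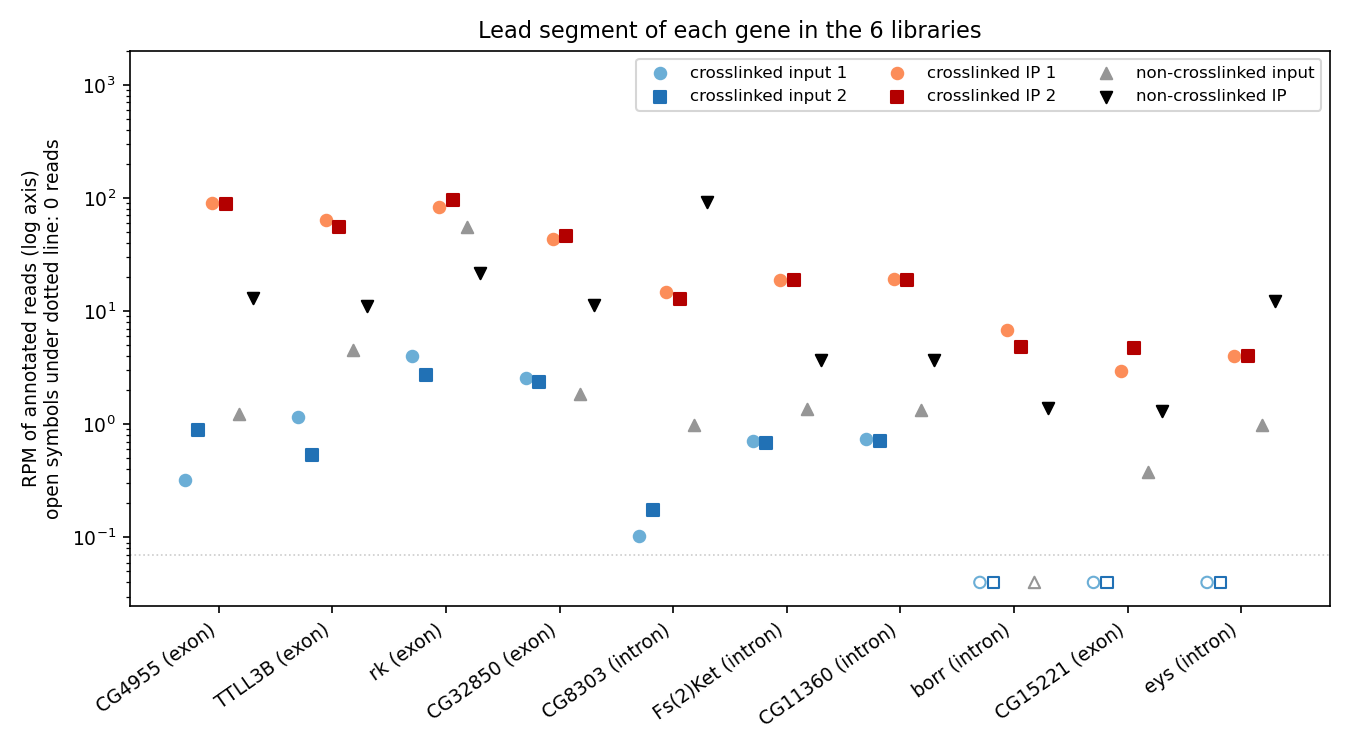
RPM of annotated reads (log axis) of the lead segment of each gene in each of the 6 libraries, with libraries without a read drawn as open symbols below the dotted line. The crosslinked IPs lie above the crosslinked inputs for every gene, and the non-crosslinked IP of CG8303 (91.6 RPM) and eys (12.2 RPM) lies above the crosslinked IPs.

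CG4955 spans X:17081447-17083356 (RefSeq, Release 6 plus ISO1 MT, as are all gene spans below), a gene of 1910 bases with 1 RefSeq transcript. Its lead, exon CG4955-RA-2, had 5 and 10 reads in the crosslinked inputs against 855 and 685 in the crosslinked IPs. Without crosslinking, the input held 5 reads of it and the IP 30. Both crosslinked IPs stood far above every other library, and the non-crosslinked IP stood between. On the RPM scale the exon was at 0.606 ± 0.405 in crosslinked input against 89.6 ± 1.95 in crosslinked IP (SD, n = 2 each), a ratio of 148. The edgeR log2 ratio was 7.30 (SE 0.27). The gene's other exon had at most 1 read in any library, so the lead held 99.9% ± 0.103 of the gene's exon and intron reads in crosslinked IP and 100% in crosslinked input. The reads of this exon are whole numbers in all 6 libraries. RefSeq places CG4955 wholly inside CG8945. The most abundant CG8945 segment in crosslinked IP had 1 and 2.40 reads there.

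TTLL3B belongs to the tubulin tyrosine ligase-like family, whose enzymes add amino acids to tubulin. It lies at 2L:6732866-6736149 and overlaps no other RefSeq gene. Its lead, exon TTLL3B-RB-2, had 18 and 6 reads in the crosslinked inputs against 596 and 434 in the crosslinked IPs. It had 18.2 reads in the non-crosslinked input against 25.2 in the non-crosslinked IP. Scaled to library size, the crosslinked IPs were highest. The non-crosslinked IP, at 11.02 RPM, and its input, at 4.51 RPM, stood between them and the crosslinked inputs. In RPM the exon went from 0.842 ± 0.433 in crosslinked input to 59.6 ± 5.31 in crosslinked IP (SD, n = 2 each), a ratio of 70.8. The other exon had at most 2.67 reads in a library, and the lead held 96.0% ± 1.81 of the gene's reads in input and 99.9% ± 0.119 in IP.

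rk encodes the receptor for bursicon, a hormone that controls cuticle tanning and wing expansion after the adult emerges. The gene lies at 2L:13982743-14001248 and overlaps NimC2 over 527 bases. Its lead, exon rk-RA, had 63 and 30.5 reads in the crosslinked inputs against 781 and 738 in the crosslinked IPs. The order was turned without crosslinking, with 223.5 reads in the input and 49.2 in the IP. In RPM the exon stood at 3.37 ± 0.918 in crosslinked input against 89.1 ± 8.45 in crosslinked IP (SD, n = 2 each), a ratio of 26.4. In the non-crosslinked input it was at 55.5 RPM, 16.5 times the crosslinked inputs' mean. The 12 other segments of rk had at most 8.00 reads in a library. As a sum they were at 1.02 ± 0.703 RPM in crosslinked input against 1.52 ± 0.413 in crosslinked IP (SD, n = 2 each), values that overlap within their spread.

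CG32850, named Rnf11 by RefSeq, encodes a RING finger protein, a class that includes many ubiquitin ligases. It lies at 4:314923-331387 and overlaps PMCA, which encodes a plasma membrane calcium pump. Its lead, exon CG32850-RA-2, had 40 and 26.5 reads in the crosslinked inputs, 408 and 356.5 in the crosslinked IPs, 7.50 in the non-crosslinked input against 26 in the non-crosslinked IP. The crosslinked IPs were again highest, at 44.7 ± 1.77 RPM against 2.46 ± 0.133 in crosslinked input (SD, n = 2 each), a ratio of 18.2. The lead held 66.1% ± 3.27 of the gene's reads in input and 91.9% ± 0.992 in IP. Summed, the gene's 7 other segments were also higher in crosslinked IP, at 3.94 ± 0.369 RPM against 1.26 ± 0.116 (SD, n = 2 each), a ratio of 3.12, but none reached the mean of 10 reads needed for testing. The exon CG32850-RB-3 went from 3 and 4 reads to 11 and 8, and no other untested exon of the gene exceeded 3.50 reads. Of PMCA, 3 features were tested and 1 was higher in crosslinked IP by the edgeR test.

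CG15221 lies at X:11724246-11736617, and overlaps inaF-A, inaF-B, inaF-C and inaF-D. Its lead, exon CG15221-RB-4, had no read in either crosslinked input, 28 and 37 in the crosslinked IPs, 1.53 in the non-crosslinked input against 3 in the non-crosslinked IP. Only the crosslinked IPs lay above the floor. Their mean of 3.87 ± 1.26 RPM (SD, n = 2) was at least 14.5-fold higher than the 3-read floor of the shallower crosslinked input. The exon held 92.3% ± 1.40 of the gene's reads in crosslinked IP. The only intron with reads, CG15221-RB, had 3.33 and 1.17 reads in crosslinked input against 2 and 3 in crosslinked IP, so it did not separate the groups. The segments of the 4 inaF genes with the most IP reads had at most 3.50 reads in a library.

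CG8303 encodes a protein annotated as a fatty acyl-CoA reductase, an enzyme class that makes fatty alcohols. It lies at 2R:16595028-16604373 and overlaps CG5089 over 1664 bases. The lead intron CG8303-RC had 1.61 and 1.98 reads in the crosslinked inputs, 138 and 98.6 in the crosslinked IPs, 3.95 in the non-crosslinked input against 209 in the non-crosslinked IP. Both kinds of pull-down were high and all inputs low. On the RPM scale the intron was at 0.140 ± 0.0520 in crosslinked input against 13.7 ± 1.43 in crosslinked IP (SD, n = 2 each). With so few input reads the pooled ratio of 92.8 carries a 95% exact counting interval of 35.8 to 343. The intron CG8303-RD had the same values in 5 of the 6 libraries, and how reads were divided between the pair is not given in the sources used here. The pair held 64.8% ± 4.97 of the gene's reads in crosslinked input, 96.4% ± 1.90 in crosslinked IP and 99.8% in the non-crosslinked IP. The gene's 6 exons had at most 4.67 reads in a library.

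Fs(2)Ket encodes importin beta, which carries proteins into the nucleus, and had the most input reads of the 10 genes. It lies at 2L:20734609-20750941 and overlaps Amacr over 8 bases. The lead intron Fs(2)Ket-RD-2 had 11.2 and 7.70 reads in the crosslinked inputs against 178 and 147 in the crosslinked IPs. Without crosslinking, the input had 5.47 and the IP 8.37. The crosslinked IPs were highest, at 18.95 ± 0.0253 RPM against 0.700 ± 0.0184 in crosslinked input (SD, n = 2 each), a ratio of 27.1. The non-crosslinked IP was at 3.66 RPM. The introns Fs(2)Ket-RC-2 and Fs(2)Ket-RE had nearly equal values, and the 3 introns together held 4.31% ± 0.180 of the gene's reads in crosslinked input against 52.2% ± 0.0621 in crosslinked IP.

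The exons of Fs(2)Ket did not follow its introns. Of 13 tested features, the 3 introns were higher, 3 exons were lower and 7 exons passed in neither direction. The exon with the most input reads, the 4th segment of those shared by isoforms RA to RE, also had the lowest log2 ratio, at -1.0 (SE 0.15). It had 167 and 120 reads in the crosslinked inputs, 51 and 40 in the crosslinked IPs, 15.1 in the non-crosslinked input against 3 in the non-crosslinked IP. In RPM that was 10.7 ± 0.0364 against 5.29 ± 0.195 (SD, n = 2 each), so the exon was lower in both IPs while the 3 introns were higher. The other 2 lower exons had log2 ratios of -0.63 each, and the 7 that were not called ran from -0.58 to 0.42. Both of those lost their call when crosslinked IP replicate 1 was left out, which left 1 lower exon, and the shallower of them also lost it without crosslinked input replicate 1, which left 2. The gene summed over all its features had a log2 ratio of 0.63 (SE 0.11), far under the 4.73 (SE 0.19) of its lead. That sum includes all 3 near-equal introns, every isoform copy and the mRNA features.

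CG11360 lies at 4:671142-690650 and overlaps no other RefSeq gene. Its lead intron CG11360-RE had 11.6 and 8.04 reads in the crosslinked inputs, 179 and 147 in the crosslinked IPs, 5.37 in the non-crosslinked input against 8.37 in the non-crosslinked IP. As in Fs(2)Ket, the crosslinked IPs were highest, at 19.0 ± 0.0499 RPM against 0.727 ± 0.0144 in crosslinked input (SD, n = 2 each), a ratio of 26.1. With its near-equal partner CG11360-RC-2, the intron held 12.7% ± 0.345 of the gene's reads in crosslinked input against 70.8% ± 0.476 in crosslinked IP. The exons moved little by comparison. The exon with the most input reads, CG11360-RC-3, had 44.3 and 32.0 reads in input and 53.7 and 41.0 in IP, a log2 ratio of 0.98 (SE 0.18). The exon with the lowest ratio, shared by RD and RE, was at 0.33 (SE 0.22).

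borr encodes Borealin-related, a subunit of the chromosomal passenger complex, which steers chromosome attachment and cytokinesis in dividing cells. It lies at 2L:9251472-9253118 and overlaps no other RefSeq gene. The lead intron borr-RA-2 had no read in any of the 3 inputs, 64.3 and 37.7 in the crosslinked IPs and 3.17 in the non-crosslinked IP. Its crosslinked IP mean of 5.85 ± 1.40 RPM (SD, n = 2) was at least 21.9-fold higher than the 3-read floor of the shallower crosslinked input. The same values are listed for the copy of this intron in isoform RB. Counted once, the intron held 68.8% ± 9.37 of the gene's exon and intron reads in crosslinked IP. The exons went the other way in RPM. Summed, they were at 3.88 ± 0.700 in crosslinked input against 2.60 ± 0.514 in crosslinked IP (SD, n = 2 each), and the 1 tested exon had 25 and 20 reads against 10 and 7, a log2 ratio of -0.74 (SE 0.30) that was not called.

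eys encodes an extracellular matrix proteoglycan that opens the lumen between photoreceptor membranes in the fly eye. Its span, 2L:2311680-2358944, is the longest of the 10 at 47265 bases and overlaps CG9967 over 45677 bases. The lead is the 6th intron segment shared by isoforms RE and RF. It had no read in the crosslinked inputs, 37.7 and 31 in the crosslinked IPs, 4 in the non-crosslinked input against 27.9 in the non-crosslinked IP. As with CG8303, both kinds of pull-down were above the inputs. The crosslinked IP mean of 4.00 ± 0.0136 RPM (SD, n = 2) was at least 15.0-fold higher than the floor of the shallower crosslinked input. The intron held 77.2% ± 3.35 of the gene's reads in crosslinked IP and 98.1% in the non-crosslinked IP. The summed exon level of 3 photoreceptor markers (ninaE, trp and ninaC) was 0.137 to 2.2 RPM over the libraries. The 14 other segments of eys had at most 8.00 reads in a library. CG9967 had 4 tested features, of which none was higher in crosslinked IP.

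**Figure D2:**
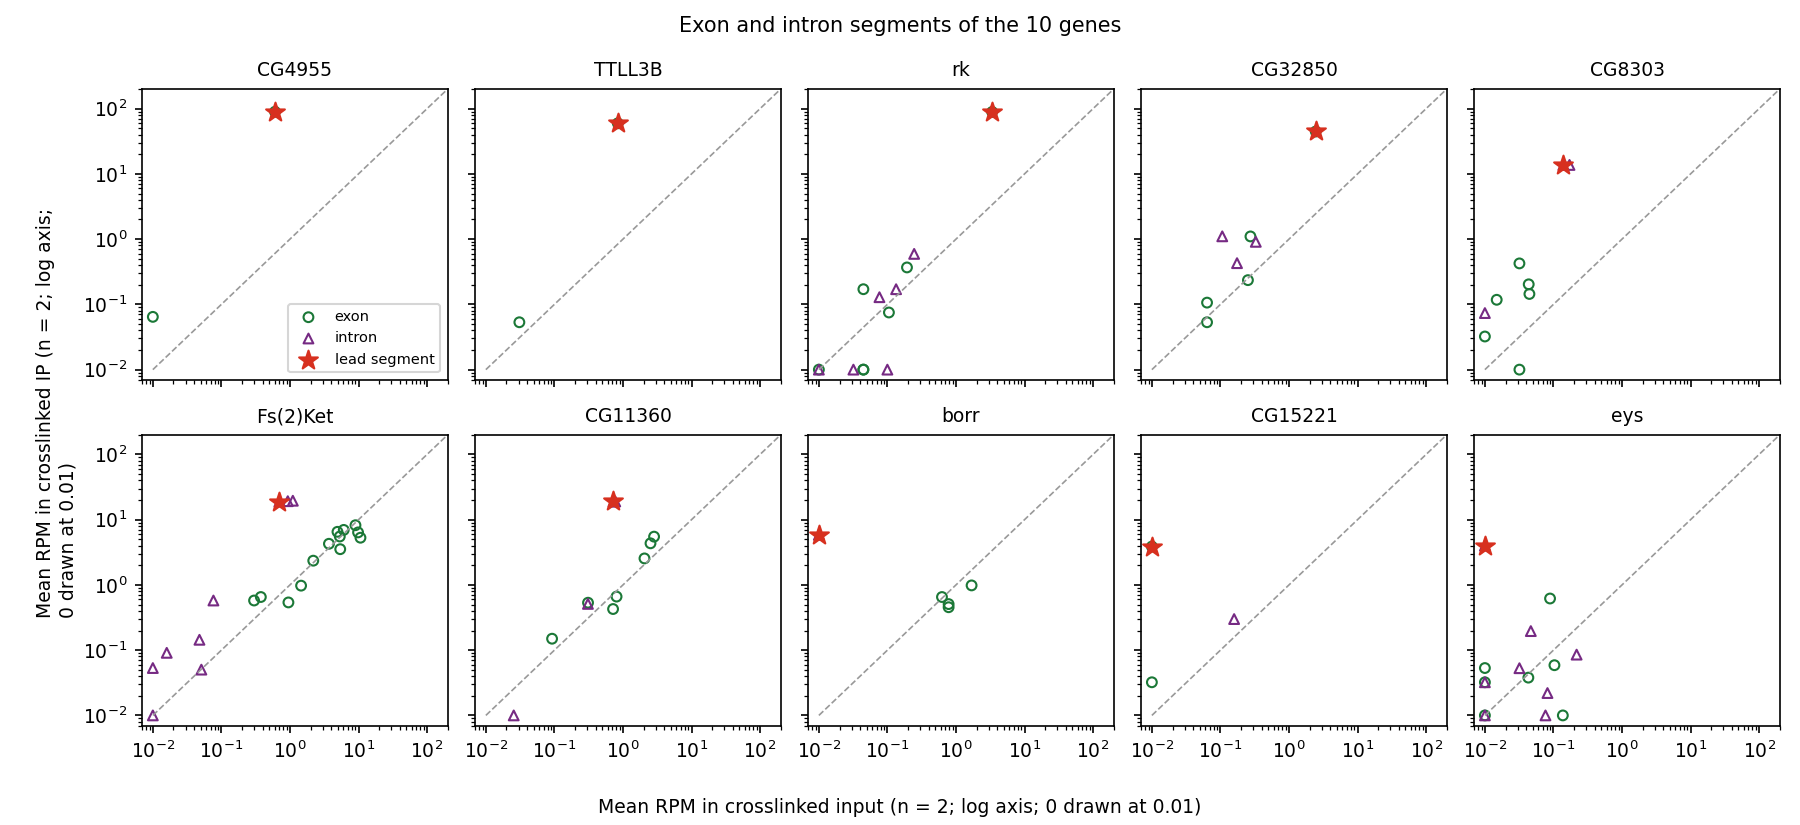
Mean RPM of every distinct exon (circles) and intron (triangles) segment of the 10 genes in crosslinked input (x) and crosslinked IP (y), n = 2 each, both on log axes with 0 drawn at 0.01, the lead as a star and equal values on the dashed line. The leads stand above the line while most other segments stay near it, and in Fs(2)Ket the exons lie along or under the line.

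Counted over all 10 genes, 29 features reached a mean of 10 reads over the 4 crosslinked libraries, of which 17 were higher in crosslinked IP, 3 lower and 9 not called, beside 22.2% higher and 19.7% lower of all tested features. These counts describe the contrast that chose the genes and are no test of it. The 80 distinct segments other than the leads included 18 that were tested. Of these 6 were higher, namely the partner introns of CG8303, Fs(2)Ket and CG11360 and 2 exons of CG11360. With DESeq2, 15 features were higher, and these 2 exons were not called (adjusted p = 0.168 for CG11360-RA-2 and 0.0538 for CG11360-RC-3). After rounding to whole reads, the leads of 6 genes, CG4955, CG8303, Fs(2)Ket, borr, CG15221 and eys, had a mean under 10 in the crosslinked inputs. These leads reached testing only through their IP reads. The lead of CG11360, with 11.6 and 8.04 input reads, reached a mean of 10 there only by the rounding. Without crosslinking, 50 of the 80 other segments had no IP read.

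Across the 10 genes the lead's share of the gene's exon and intron reads had a median of 17.6% in crosslinked input against 84.5% in crosslinked IP. In 5 genes, CG4955, TTLL3B, rk, CG32850 and CG15221, the lead held at least 90% in crosslinked IP. Over the 3411 genes with at least 50 reads there and more than 1 segment, the top segment held at least 90% in 3.11% and its median share was 37.7%. These 5 genes are all led by exons. In crosslinked input their leads held 100% in CG4955, 96.0% in TTLL3B, 76.4% in rk, 66.1% in CG32850 and 0 in CG15221. CG4955 and TTLL3B had only 2 distinct segments each. The leads were chosen for being high in crosslinked IP, so nothing is read from their shares there beside those of all genes. The smallest p of an exact permutation test over 2 and 2 libraries is 0.33, so no test of the share is given.

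**Figure D3:**
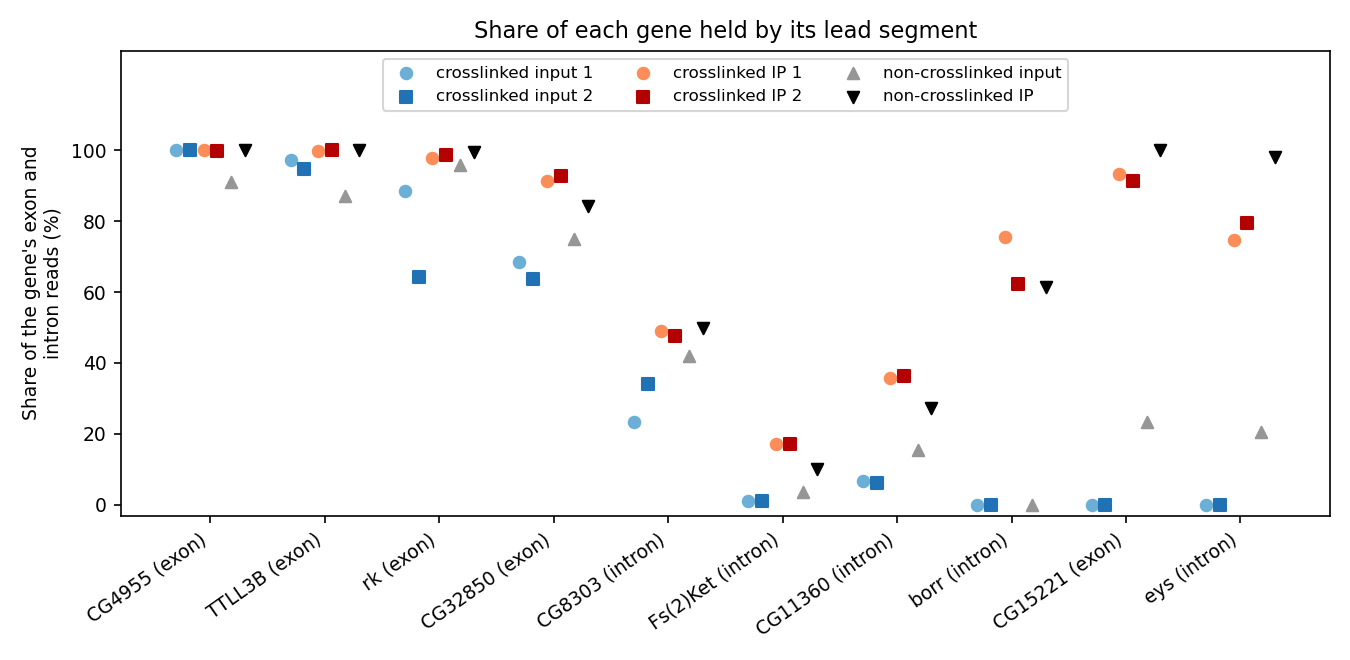
Share of each gene's exon and intron reads, in percent, held by its lead segment in each of the 6 libraries. The share is between 90.9% and 100% in all libraries for CG4955, and goes from 0 in crosslinked input to between 62.1% and 93.3% in crosslinked IP for borr, CG15221 and eys.

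The non-crosslinked pair asks whether the leads were also recovered by the beads without UV irradiation. For 8 of the 10 leads a non-crosslinked library held more than 3 reads after rounding to whole reads, which leaves out borr, with 3.17, and CG15221. Of these, 7 were over 2-fold higher in the non-crosslinked IP than in its input, on log2 CPM with a prior count of 2, and rk was over 2-fold lower. The 7 include Fs(2)Ket and CG11360, whose leads had nearly the same reads and are not separate observations. Over 13413 tested features with more than 3 reads in either library by the same rounding, 11.1% were over 2-fold higher, and over exons alone 6.88% and introns alone 7.03%. There is 1 library per group here, so no test can be made, and the intervals below cover counting error only.

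CG8303 had the largest difference of the 10 in that pair. Its intron was at 0.982 RPM in the non-crosslinked input against 91.6 RPM in the non-crosslinked IP, a ratio of 93.3 with a 95% exact interval of 35.4 to 341. Of all tested features, 0.0281% had a larger log2 ratio. The intron of eys followed at 0.994 and 12.2 RPM, a ratio of 12.3 with an interval of 4.32 to 48.4. The exon of CG4955 was at 1.24 and 13.1 RPM, a ratio of 10.6 (4.06 to 34.9), and that of CG32850 at 1.86 and 11.4 RPM, a ratio of 6.11 (2.52 to 14.6). For these 4 genes the interval stayed above 2-fold.

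The remaining ratios were smaller or less certain. TTLL3B was at 4.51 and 11.02 RPM, a ratio of 2.44 (1.28 to 4.76). The introns of Fs(2)Ket and CG11360 were at 1.36 and 1.34 RPM in the non-crosslinked input and, in its IP, both at 3.66 RPM, with intervals from 0.813 to 10.96 that include no difference. The 3.17 reads of borr and the 3 reads of CG15221 in the non-crosslinked IP lie near or at the floor, so no ratio is given. The exon of rk stood apart, with 55.5 RPM in input and 21.5 RPM in IP. That log2 ratio of -1.36 stayed negative, at -0.82, relative to the median of all tested features, which was -0.54. The median over all 10 leads was 1.90.

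The last comparison set the 2 kinds of IP side by side. In RPM, 8 leads were over 2-fold higher in crosslinked than in non-crosslinked IP and 2 were over 2-fold lower. Crosslinked IP reads also chose the genes, so leads that are high on that side were built in. These counts and their distance from all features are therefore a description with no test. Fs(2)Ket and CG11360, both among the 8, had leads with nearly the same reads. Over all tested features, 52.8% were over 2-fold higher (40.8% of exons and 80.6% of introns) and 1.16% over 2-fold lower, and the median log2 ratio was 1.08. This count depends on the total: with rRNA left out of it, the log2 ratios of CG4955, CG8303 and CG15221 went from 2.75, -2.72 and 1.37 to 1.92, -3.55 and 0.63, 7 leads were over 2-fold higher and 2 lower, and the median of all features was 0.39. Relative to the median of 1.08 the 8 leads were still higher, 4 of them by over 2-fold, by 1.66 for CG4955, 1.32 for TTLL3B, 1.22 for CG11360 and for Fs(2)Ket, 0.95 for rk, 0.87 for CG32850, 0.80 for borr and 0.29 for CG15221 on the log2 scale. CG4955 had 6.82 times the RPM of the non-crosslinked IP (95% exact interval 4.76 to 10.2) and CG15221 2.95 times (0.944 to 14.3), which includes no difference.

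CG8303 and eys ran the other way. The intron of CG8303 was 6.68-fold higher in non-crosslinked than in crosslinked IP (5.48 to 8.02), and that of eys 3.06-fold higher (1.89 to 4.80). Relative to the median of all features they were lower in crosslinked IP by log2 differences of -3.81 and -2.64. The unannotated share of reads was 12.9% in the non-crosslinked IP and 5.54% and 5.99% in the crosslinked IPs, and its part in these differences was not tested.

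**Figure D4:**
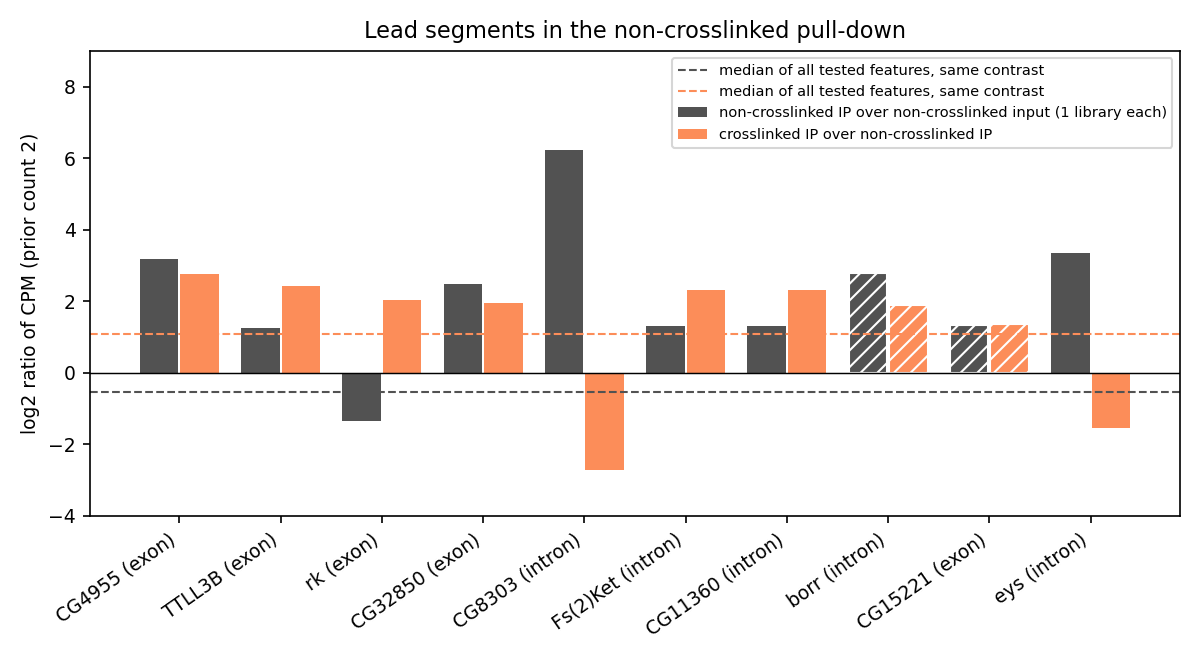
Log2 ratios of CPM (prior count of 2) for each lead: non-crosslinked IP over non-crosslinked input (grey bars) and crosslinked IP over non-crosslinked IP (orange bars), with the medians of all tested features as dashed lines at -0.54 and 1.08. White hatching marks borr and CG15221, with about 3 reads or fewer in each non-crosslinked library. CG8303 and eys have tall grey bars and negative orange bars, and rk has the only negative grey bar.

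Several leads had features of other genes with nearly the same reads. After the values were seen, such features were looked for by 2 conditions: reads within 5% or 1 read in each of the 3 IPs, and within 2-fold or 1 read in each of the 3 inputs. The exon of rk matched 1 exon of CG2225, with 787 and 738 reads in the crosslinked IPs, 73.5 and 38.5 in the crosslinked inputs, 226 in the non-crosslinked input against 49.2 in the non-crosslinked IP. The lead intron of Fs(2)Ket matched 9 features of 6 other genes: CG11360, CG12502, CG34417, CG42534, SNF4Agamma and Shab. That of CG11360 matched 10 features of 6 genes, the same group with Fs(2)Ket in its place. In crosslinked IP replicate 1 these introns held from 178 to 186 reads each, and in the non-crosslinked IP from 8.37 to 9.37. Because these reads are fractional and nearly equal in several genes, which gene a read came from is uncertain for the leads of Fs(2)Ket, CG11360 and rk. No other gene's feature matched the leads of CG4955, TTLL3B, CG32850, CG8303, borr, CG15221 or eys. Of these, only CG4955 had whole reads in all 6 libraries. The reads of the rest are fractional too, and which features they were divided with is not given in the sources used here. The strand used in counting is not given in the sources used here, so reads from a gene and an overlapping gene cannot be told apart.

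**Figure D5:**
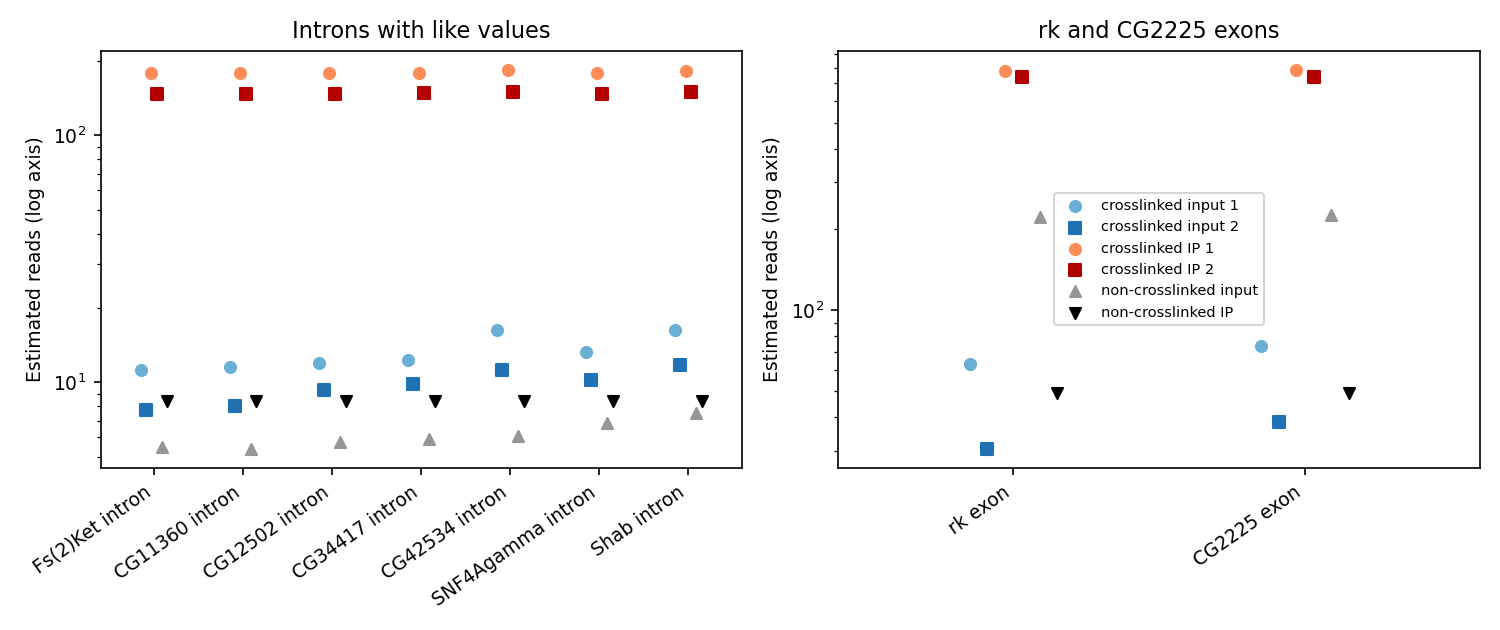
Estimated reads (log axes) per library of the lead introns of Fs(2)Ket and CG11360 beside introns of 5 other genes (left), and of the rk exon beside the CG2225 exon (right). Each library's symbols run nearly level across the genes, with 178 to 184 reads on the left in crosslinked IP replicate 1 and 781 and 787 on the right.

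Genes that share a complex, pathway, process or gene family with a member were listed and tested as sums over their features. The lists of TTLL3B and CG8303 hold family members and not working partners. Of 42 such genes, 22 were tested, 1 was higher in crosslinked IP, 8 were lower and 13 were not called, beside 11.2% higher and 20.2% lower of 6368 genes tested. Their median log2 ratio was -0.26, and that of all genes -0.11. Of the partners of borr in the chromosomal passenger complex, Incenp, its scaffold, fell from 12.9 ± 0.494 to 9.39 ± 0.891 RPM (SD, n = 2 each; edgeR log2 ratio -0.55, adjusted p = 0.010), while the kinase gene aurB and Det were not called. In nuclear transport, where Fs(2)Ket acts, 5 of 11 tested genes were lower and none higher. The nucleoporins Nup153 and Nup358 had the lowest log2 ratios, -1.36 and -1.18, and Pen, an importin alpha, was at -0.50. Ran, the GTPase that directs this transport, was not called at -0.13.

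The other lists held fewer tested genes. None of the 5 tested TTLL relatives of TTLL3B was called, and their median log2 ratio was 0.11. Among relatives of CG8303, CG5065 was higher, from 0.303 ± 0.113 to 1.97 ± 0.181 RPM (SD, n = 2 each; log2 ratio 2.54, SE 0.41), and CG8306 was lower, at -0.54. The genes of the bursicon subunits, Burs and Pburs, the ligand of rk, did not reach testing, with at most 0.045 RPM as the mean of a crosslinked group. Of 4 photoreceptor genes listed with eys, only the polarity gene crb was tested and it was lower, at -0.39.

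The authors' deposited table gives a ratio per feature whose formula is not stated there. In the authors' deposited table the leads stood at 237 for CG4955, 118 for CG8303, 99.3 for TTLL3B, 34.8 for rk, 33.2 for Fs(2)Ket, 32.1 for CG11360 and 21.4 for CG32850, beside a median of 1.36 over 39940 features. The genes were chosen by IP against input in the same data, so these values are a description and no separate support. The leads of borr, CG15221 and eys, which had no crosslinked input read, are not listed in the authors' deposited table.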

How the data were processed

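One file per library was used. Per the files themselves the authors deposited an estimated count and an RPM value for each annotated feature, with reads divided between features so that counts are fractional, and a separate table with a ratio per feature. The submitters' processing notes name bcl2fastq 2.19, STAR 2.5.2b and bedtools 2.29.0 and the builds dm6 and mm10, with no role for each, and removal of PCR duplicates is not given in the sources used here. The deposited RPM include unannotated reads, so RPM were recomputed over annotated reads. Unannotated reads made up 1.98% to 12.9% of a library and were left out of library sizes and tests.

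Features absent from a library's file were set to 0. Estimated counts were rounded for edgeR 4.0.16 (quasi-likelihood, TMM, Benjamini-Hochberg adjustment over all tested features, R 4.3.3) on the 4 crosslinked libraries, for features with a mean of at least 10. This left 17778 features, and 6368 genes when features were summed. Gene sums, unlike most shares, keep every isoform copy, and they include mRNA features. The fit was tested on simulated data with known changes. The non-crosslinked libraries have 1 sample per group and were compared as log2 CPM with a prior count of 2, without a test. Exact intervals are 95% (Clopper-Pearson, or the conditional interval of a ratio of counts), and they and the 3-read floor cover counting error alone, because PCR copies may be among the reads. Replicates differed by more than sampling noise (chi-square per degree of freedom 3.54 between inputs and 2.97 between IPs).

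Segments are named as in the files, by isoform and a number, with no coordinates. Gene spans and names are from RefSeq, and all 10 genes matched. Shares count 1 copy of isoform segments with equal values, except those given for several introns together, which count every copy. The members and gene lists were chosen with earlier results of these data known. The text names each gene's lead segment, its segment with most input reads, its lowest-ratio segment, listed relatives and markers. Other genes with like values were found after the data were seen. Alternatives were DESeq2 1.42.0, limma 3.58.1 on log2(RPM + 1), other filters and scalings, a replicate block and leaving out each library.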

Additional observations from a re-analysis of the deposited data

Results flagged for a closer look

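The exon of rk was the only lead that moved in opposite directions in the 2 kinds of library pair. It was higher in IP in all 4 pairs of crosslinked IP and crosslinked input, and lower in IP without crosslinking, with a log2 ratio of -1.36 (223.5 reads in input, 49.2 in IP). The difference was not tested, because each non-crosslinked group has 1 library. The exon of CG2225, with nearly the same reads as the rk exon, had 226 and 49.2 reads in that pair.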

How the results depend on the processing

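Each lead had 11 or 12 alternative fits, which gave 117 log2 ratios in all. They ran from 2.26 to 9.40, all higher in crosslinked IP, which is no sign of stability since this contrast chose the genes. The lowest, that of CG15221, came from limma on log2(RPM + 1), a different scale from the edgeR ratios. The size of the ratio is uncertain for borr, CG15221 and eys, whose crosslinked inputs had no read. Depth limits the non-crosslinked pair most, where borr and CG15221 lie near the floor.

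Of 29 tested member segments, 17 were higher and 3 lower. With a mean of at least 50 counts, 18 were tested, of which 11 were higher and 3 lower. With DESeq2, 1 of 29 was lower. Leaving out 1 crosslinked library gave 16 to 17 higher and 1 to 3 lower, the lowest without crosslinked IP replicate 1. Over all features, 3948 of 17778 were higher and 3511 lower. With no filter on low counts, 5317 of 104443 were lower. A mean of at least 50 gave 1484 higher and 1611 lower of 4296. DESeq2 gave 2290 higher and 1298 lower of 17778. The filters change how many features are tested, so these counts do not share 1 total. The lead's median share in crosslinked IP, 84.5%, became 84.4% with mRNA features in the gene total and 85.4% with all isoform copies kept. That in crosslinked input, 17.64%, became 17.60% and 17.47%. Leaving out a crosslinked library reads the share of its group from the other replicate alone. The size of that move follows from the replicates' difference, so it is no test of stability.

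With the replicate number as a block, 17 member segments were higher and 3 lower, and 2 relatives were higher in place of 1, as with no filter (2). The labels do not say that a number marks a shared batch, and the deviations of same-numbered libraries correlated at 0.0387 over all tested features and at 0.22 over the 2237 with a mean of at least 100.

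The median log2 ratio of the leads in the non-crosslinked pair, 1.90, became 2.11 with a prior count of 0.5 and also with rRNA left out of the total, 1.77 with unannotated reads in it and, as an alternative added after seeing the data, 2.44 when centred on all tested features. The median of crosslinked over non-crosslinked IP, 1.99, became 1.17 without rRNA, 2.10 with unannotated reads and 0.91 when centred, all 3 added after seeing the data. CG15221 was under 2-fold, at 0.63, without rRNA. When centred, CG15221, borr, CG32850 and rk were under 2-fold, at 0.29, 0.80, 0.87 and 0.95.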
